A study of Mus musculus with 6 samples.

Results

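Complex I of the mitochondrial respiratory chain was followed here through the mRNAs of its nuclear-encoded subunits. The members were the gene symbols in the counts that begin with Ndufa, Ndufb, Ndufc, Ndufs or Ndufv directly followed by a digit, together with Ndufab1, and assembly factors named Ndufaf were left out. Of 23284 gene symbols, 38 had such a name and 36 of these reached a mean level of at least 1 CPM over the 6 libraries, where CPM is the count of a gene scaled to a common library total. Ndufb4 lay just inside that limit with a mean of 1.33 CPM, and Ndufa4l2 just outside it with 0.462 CPM. Ndufs5 was left out with 0 counts in every library. The level limit used the mean over all 6 libraries and not the difference between the groups. The family itself was chosen with earlier results of these data known.

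The libraries were made from MIN6 cells, an insulin-secreting line from a mouse insulinoma that serves as a beta cell model, so that 1 tumour line stands for the cell type. In 3 libraries, called control KD, the cells had received a Control ASO, and in 3, called Paupar KD, a Paupar ASO, where ASO is the usual abbreviation of antisense oligonucleotide and KD of knockdown. Paupar, the target, is a long noncoding RNA whose gene neighbours that of the transcription factor Pax6, and no gene symbol in the counts matched it. The counts therefore cannot show how far Paupar was lowered in any library, and the group name follows the labels. The labels name no other treatment, time or batch. They also leave it unsaid if each replicate was its own culture, so that a p-value covers the spread between these libraries and nothing more.

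Complex I takes electrons from NADH, passes them along a chain of iron-sulphur clusters to ubiquinone, and pumps protons across the inner mitochondrial membrane. Its peripheral arm, which reaches into the matrix, holds the core subunits that bind NADH, the clusters and the quinone, while its membrane arm holds the proton pumps, whose core subunits are encoded by mitochondrial DNA. Accessory subunits surround the core in both arms and are needed for assembly or stability. In beta cells, respiration of glucose-derived NADH raises the ATP level that closes potassium channels and starts insulin release.

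Library totals were 16973622 to 28693863 counts. The line carried its beta cell markers: 11 of 11, from Ins1, Ins2 and Iapp to Chga, were at 1 CPM or more, with a summed level of 41679 to 45781 CPM in control KD and 46472 to 67721 CPM in Paupar KD. Ins1, Ins2, Iapp and Chga made up most of that sum. Slc30a8, Slc2a2 and Ucn3 had negative log2 fold changes (-0.29, -0.27 and -0.55; edgeR adjusted p = 0.211, 0.296 and 0.363), and the 3 Paupar KD values of Slc30a8 lay below its 3 controls. Of 5 alpha cell markers 3 reached 1 CPM (804 to 864 CPM summed in control KD and 881 to 1064 in Paupar KD). Of 4 duct markers 2 did, Krt7 and Spp1 (282 to 288 and 307 to 381 CPM summed), with Cftr at 0. Summed acinar markers were at 1.22 to 1.66 and 0.587 to 0.944 CPM, with Cpa1, Ptf1a and Pnlip at 0, and immune markers at 2.57 to 2.68 and 1.003 to 1.46 CPM, with Ptprc at 0. Fibroblast, endothelial and delta cell markers summed to under 1 CPM in every library. The part of these marker differences in the results that follow was not tested, and in bulk RNA fewer cells of a kind and less RNA per cell cannot be told apart.

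Short pieces of sequence were compared for 2 reasons: to see what the members' start regions share, and to see which members can be counted without confusion with a copy. RefSeq start regions (250 bases before to 50 after the annotated start, build GRCm38.p6) were matched for 32 of the 36 members. They were searched on both strands for words recognised by known regulators of mitochondrial genes. The YY1 word AAGATGGCG was present in 5 of 32 members (15.6%), against 1.40% of 32851 start regions in the table and 3.44% of the 9302 tested genes with a start region. It lay on the gene's own strand each time, 23 to 36 bases after the start. Its place in other genes with the word was not compared. The word is shown in capitals with the bases around it:
Ndufs7, chr10:80249463-80249492, plus strand: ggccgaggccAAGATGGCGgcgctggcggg
Ndufs6, chr13:73328433-73328462, minus strand: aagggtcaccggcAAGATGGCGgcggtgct
Ndufc1, chr3:51408914-51408943, minus strand: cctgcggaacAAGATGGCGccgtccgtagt
Ndufa9, chr6:126849096-126849125, minus strand: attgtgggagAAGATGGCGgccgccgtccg
Ndufs4, chr13:114388045-114388074, minus strand: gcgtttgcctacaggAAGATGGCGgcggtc
The word contains ATG, the letters of a start codon, and a match describes letters in this window, not a bound site.

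The NRF1 word CGCANGCGC, where N is any base, was present in 8 of 32 members (25%), against 6.31% of all start regions and 15.3% of those of tested genes. It was in the start regions of Ndufa5, Ndufa6, Ndufa8, Ndufa11, Ndufa12, Ndufb4, Ndufb10 and Ndufs6. NRF1 is a long-known activator of respiratory chain genes, and 3 of its words near a start are shown, with the word in capitals as it reads on the gene's strand:
Ndufb10, chr17:24724430-24724459, minus strand: ctgcccactaCGCAGGCGCagctgtcacct
Ndufa8, chr2:36049328-36049357, minus strand: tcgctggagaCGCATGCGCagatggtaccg
Ndufs6, chr13:73328479-73328508, minus strand: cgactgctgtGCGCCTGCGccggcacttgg
In Ndufs6 the letters are the word's reverse complement, and this gene held both an NRF1 and a YY1 word. The ETS word CCGGAAG, read by GABPA, was in 4 members (12.5%; 8.86% of all start regions and 19.4% of tested genes). The ERR word AAGGTCA, read by oestrogen-related receptors, was in 2 (6.25%; 4.72% and 3.77%). None of these 4 words contains another, and a member without a match lacks only these letters in this window.

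Near-identical copies in the genome limit what can be counted. In the mm9 assembly 12 of the 36 members shared no 32-base word of their transcript with any other place, 13 shared over 5% of their words and 7 over 25%: Ndufab1 (58.6%), Ndufs3 (55.5%), Ndufb4 (43.4%), Ndufa12 (31.7%), Ndufb3 (30.6%), Ndufb11 (29.8%) and Ndufs6 (29.6%). Ndufs5, an accessory subunit on the outer face of the membrane arm, shared 84.4% of its words. The 30 bases that span each of its splice junctions in mm9 transcripts (lower case, the end of 1 exon; capitals, the start of the next) also stand unbroken in the genome, as they do for Ndufb4:
Ndufs5, exons 1 and 2: aagggcactgcagagCCATGCCTTTCCTTG
Ndufs5, exons 2 and 3: cttcggtacaaaacgATGAGGCGAATGCAT
Ndufb4, exons 1 and 2: cgcgtgtcgcacatcGAGGATCCTGCCTTG
Ndufb4, exons 2 and 3: ttcaaaacagacaggGACAGAAAGGAAAGA
Both Ndufs5 junctions were found without an intron at chr16:42955727-42955756 and chr16:42955945-42955974, in BC002163, which the annotation calls a pseudogene and which lies inside Zbtb20. The Ndufb4 junctions were found unspliced on chromosome 15 (chr15:73640132-73640161 and chr15:73639985-73640014, in the pseudogene Gm3244) and on chromosome 19 (chr19:25107797-25107826 and chr19:25107944-25107973, inside Dock8). The junction of exons 2 and 3 was also found at chr5:27186552-27186581 (gene records Dpp6 and the pseudogene Gm16056) and at chr9:21338114-21338143 (gene records AB124611 and the pseudogene RP23-411N10.3). These 30 bases alone fit the gene and the copy equally well. How a longer read, with the bases around them, was placed was not tested.

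The counts at these genes were uneven. Ndufs5 had 0 counts in all 6 libraries, which by counting error alone allows up to 0.105 to 0.177 CPM (3 counts per library). BC002163, named here after its values were seen, had 695 to 825 counts per library, that is 31.7, 34.1 and 27.6 CPM in the controls and 41.0, 34.7 and 35.4 CPM in Paupar KD, each in the order of replicates 1 to 3, as in all such lists of values here. Its 3 Paupar KD values lay above its 3 control values. Its log2 fold change was 0.25 ± 0.11 (SE), edgeR adjusted p = 0.298. Ndufb4 had 24 to 39 counts. Its levels were 1.73, 1.45 and 0.838 CPM in the controls and 1.42, 1.42 and 1.12 CPM in Paupar KD, and the groups overlapped. Where the reads of Ndufs5 and Ndufb4 were counted was not tested.

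Levels of different genes were compared as CPM per kilobase of a principal annotated transcript, in control KD. The members spanned 1.38 to 331 CPM per kilobase with a median of 71.6, and 26 of 36 lay within 2-fold of that median. Ndufb8, a membrane arm accessory subunit whose protein serves as a common marker of complex I, was highest, at 344, 327 and 323 CPM per kilobase in controls 1 to 3. Ndufa4, which carries a complex I name and is now assigned to complex IV, was next at 232 ± 20.4 CPM per kilobase (SD, n = 3), and Ndufb9 followed at 185 ± 18.4. The 3 controls of Ndufb8 lay above those of every other member.

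At the low end stood Ndufb4 at 1.38 ± 0.469 CPM per kilobase, Ndufab1, the mitochondrial acyl carrier protein, at 9.04 ± 1.98, Ndufa12 at 18.0 ± 2.69 and Ndufc1 at 19.6 ± 1.84. Each of these 4 shared over 5% of its words with other places in the genome, as did 13 of all 36 members. Some of those 13 had high levels, such as Ndufa4 (19.5% of words, 232 CPM per kilobase) and Ndufb11 (29.8%, 132 CPM per kilobase). The part of copies or of the chosen transcript model in these levels was not tested. Among the 23 members that shared 5% or less, levels ran from 29.5 CPM per kilobase (Ndufa11) to 331, an 11.2-fold span, against 240-fold over all 36. The 7 core subunits had a median of 76.0 CPM per kilobase, the lowest being Ndufs3 at 33.4. Peripheral arm accessory subunits had a median of 72.2 and membrane arm accessory subunits one of 64.4 CPM per kilobase.

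**Figure D1:**
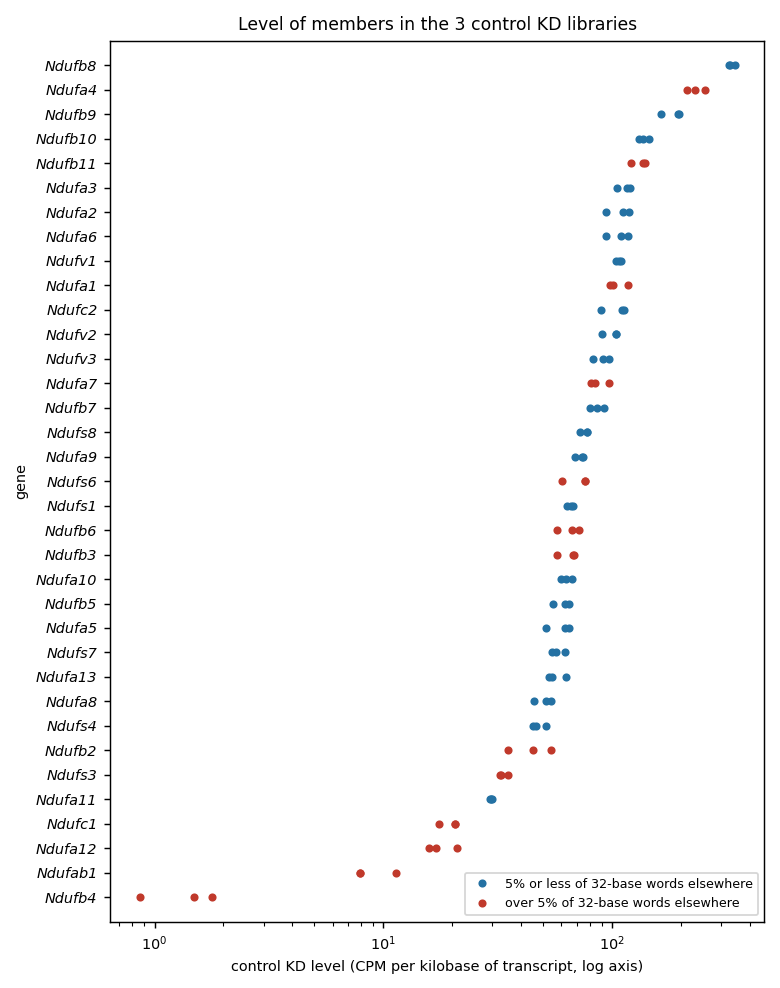
Level of 35 members in control KD, in CPM per kilobase of transcript on a log axis, with a point for each of the 3 control libraries and colour by the share of 32-base words found elsewhere in mm9. Ndufb8 is highest at 331 CPM per kilobase and Ndufb4 lowest at 1.38. The 4 lowest genes all share over 5% of their words, as do some genes with high levels, such as Ndufa4.

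Between the groups, no complex I subunit passed the test over all genes, while most had a slightly higher level in Paupar KD. By edgeR's quasi-likelihood test with Benjamini-Hochberg adjustment, 0 of 36 members were called higher and 0 lower, where 5 of the 13039 genes tested (0.0383%) were called higher and 1 (0.00767%) lower. At an unadjusted p under 0.05, 12 of 36 members were higher and 0 lower, against 9.63% and 8.11% of all tested genes. That count changed with the libraries used. Leaving out control KD replicates 1, 2 and 3 in turn gave 9, 5 and 2 members at that p, in either direction. Leaving out Paupar KD replicates 1, 2 and 3 in turn gave 7, 12 and 19. Each of these fits had fewer libraries, and its share over all genes at that p was not computed. In 16 of 36 members all 3 Paupar KD libraries lay above all 3 controls, and in 0 below, against 13.7% and 13.3% of tested genes. Log2 fold changes were positive in 33 members and negative in 3, from -0.19 to 0.40 with a median of 0.24, where over all tested genes 6652 were positive and 6387 negative with a median of 0.01. Limma-voom called 0 members in either direction. DESeq2 called 1 member, Ndufs1, higher (adjusted p = 0.00215), where it called 2.15% of all genes higher.

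Of the core subunits of the peripheral arm, 7 of 7 had a positive log2 fold change, the median being 0.20, and in 4 of them all 3 Paupar KD libraries lay above all 3 controls, as in 13.7% of all tested genes. Ndufs1, the largest subunit, which carries several iron-sulphur clusters of the electron path (chr1:63190170-63223396 in mm9, 19 exons), had the smallest p of all members. It was at 169, 180 and 176 CPM in the controls and at 227, 223 and 221 CPM in Paupar KD. The 3 Paupar KD values were close together and above every control. The log2 fold change was 0.35 ± 0.08 (SE), a 1.28-fold difference (edgeR adjusted p = 0.128). Without Paupar KD replicate 1 it was called (log2 fold change 0.34, edgeR adjusted p = 0.0378), where 0.934% of all tested genes were called higher. It was not called without Paupar KD replicate 2 or without any 1 of the controls, fits that called 0 of all tested genes. The smallest edgeR adjusted p of any member in those fits was 0.204 to 0.560.

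Ndufs7, which holds the last iron-sulphur cluster before the quinone, was at 47.2, 43.0 and 41.3 CPM in control KD and at 66.6, 48.4 and 52.1 CPM in Paupar KD. Every Paupar KD library lay above every control, and replicate 1 was the highest. The log2 fold change was 0.35 ± 0.13 (SE; edgeR adjusted p = 0.251). Ndufs8, which also carries clusters, was at 75.1, 75.1 and 69.5 CPM in the controls and at 121, 76.5 and 75.2 CPM in Paupar KD. Its groups were set apart by a narrow margin, and replicate 1 alone was far above the controls (log2 fold change 0.31 ± 0.18 SE, edgeR adjusted p = 0.386).

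Of the other core subunits, 3 had overlapping groups. Ndufv1, which binds the flavin and NADH, was at 178, 172 and 181 CPM in the controls and at 222, 180 and 192 CPM in Paupar KD. Ndufv2, its partner with an iron-sulphur cluster, was at 160, 160 and 140 CPM and at 173, 162 and 156 CPM. Ndufs3, a core subunit without a cluster, was at 36.7, 34.2 and 34.0 CPM and at 43.9, 37.6 and 35.9 CPM. In each of the 3 the highest library was Paupar KD replicate 1, and another Paupar KD library lay within the range of the controls. Their log2 fold changes were 0.16, 0.09 and 0.16 (edgeR adjusted p = 0.414, 0.613 and 0.432).

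**Figure D2:**
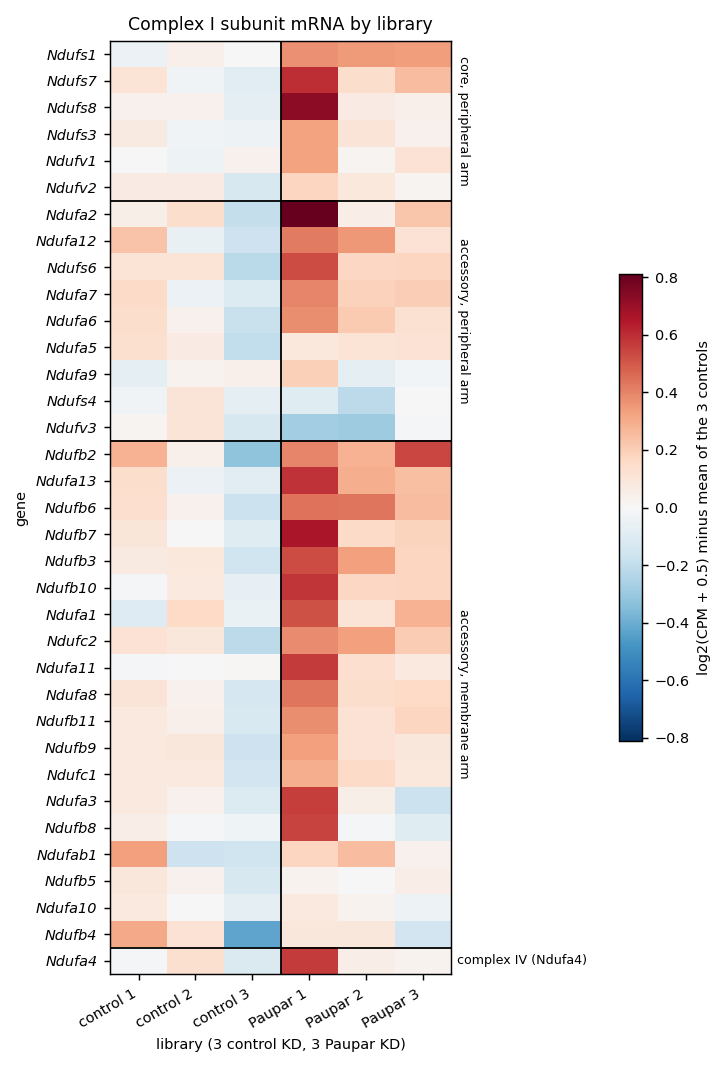
Log2(CPM + 0.5) of 35 members in each of the 6 libraries minus its mean over the 3 controls, with members grouped by the part of the complex they belong to. The column of Paupar KD replicate 1 is positive for 33 of these 35 and that of control KD replicate 3 for 4 of 35.

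Among 9 accessory subunits of the peripheral arm, 7 log2 fold changes were positive and 2 negative, with a median of 0.24. Ndufa7 was at 49.2, 42.7 and 40.9 CPM in control KD and at 58.3, 50.3 and 50.8 CPM in Paupar KD (log2 fold change 0.26 ± 0.11 SE, edgeR adjusted p = 0.264). Ndufs6, a zinc-binding subunit added late in assembly, was at 43.3, 43.3 and 34.4 CPM and at 58.1, 45.1 and 45.3 CPM (0.30 ± 0.14 SE, edgeR adjusted p = 0.308). These were the 2 of 9 genes of this arm's accessory set in which every Paupar KD library lay above every control. Over all tested genes that share was 13.7%. Ndufa2, a small subunit with a thioredoxin-like fold, was at 59.2, 63.0 and 50.03 CPM and at 101, 59.3 and 66.8 CPM. Its Paupar KD libraries were the most scattered of any member, with an SD of 0.398 on the log2 scale, and the groups overlapped (log2 fold change 0.40 ± 0.19 SE, edgeR adjusted p = 0.322).

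The 2 negative values of this arm were those of Ndufv3 and Ndufs4. Ndufv3, which sits beside the NADH-binding subunits, was at 144, 153 and 130 CPM in the controls and at 117, 116 and 141 CPM in Paupar KD. Ndufs4, whose loss causes a Leigh-like disease in mice and people, was at 71.5, 78.5 and 68.9 CPM and at 68.1, 62.8 and 72.9 CPM. In both genes Paupar KD replicate 3 lay among the controls and the others below their lowest value. Log2 fold changes were -0.19 ± 0.11 and -0.10 ± 0.10 (SE; edgeR adjusted p = 0.386 and 0.590). Ndufa9, a subunit related to short-chain dehydrogenases, had a log2 fold change of 0.04 and Ndufa5 one of 0.10, each with overlapping groups.

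Of 22 listed symbols of membrane arm accessory subunits, 20 were in the counts and 19 were members. Ndufb1 and Ndufb1-ps were not in the counts. Of the 19 members, 18 had positive values and 1, Ndufb4, a value of -0.01 ± 0.32 (SE). Their median was 0.25, and in 10 of them all 3 Paupar KD libraries lay above all 3 controls, as in 13.7% of all tested genes. The member with the smallest p here was Ndufb6, a small membrane-spanning subunit (chr4:40217624-40226454), at 47.1, 43.9 and 38.0 CPM in control KD and at 58.3, 58.2 and 51.0 CPM in Paupar KD. All Paupar KD values lay above all controls (log2 fold change 0.38 ± 0.11 SE, edgeR adjusted p = 0.174). Ndufb3, another membrane-spanning subunit (chr1:58643228-58652808), was at 51.6, 52.0 and 43.7 CPM and at 70.9, 61.9 and 55.3 CPM (0.35 ± 0.12 SE, edgeR adjusted p = 0.222). The groups were apart here as well, with replicate 1 highest. Without Paupar KD replicate 3, edgeR called Ndufb6 (log2 fold change 0.44, adjusted p = 0.0433), Ndufb3 (0.44, 0.0474) and Ndufs1 (0.36, 0.0351), where it called 4.65% of all genes higher.

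Ndufa13, also known as GRIM-19 and linked to cell death as well as to complex I, was at 78.1, 68.1 and 66.0 CPM in the controls and at 106, 86.6 and 83.5 CPM in Paupar KD (log2 fold change 0.38 ± 0.12 SE, edgeR adjusted p = 0.196). Ndufc2 was at 77.0, 75.4 and 61.2 CPM and at 92.5, 89.2 and 81.8 CPM (0.30 ± 0.11 SE, edgeR adjusted p = 0.239). In these genes the lowest Paupar KD library stood a few CPM above the highest control. On the X chromosome, Ndufb11 was at 127, 124 and 110 CPM and at 156, 130 and 135 CPM (0.23 ± 0.10 SE, edgeR adjusted p = 0.294). Its groups were also apart, while those of the other X-linked member, Ndufa1, overlapped (log2 fold change 0.31).

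Ndufb10, Ndufb7 and Ndufa8 face the intermembrane space and are held by disulphide bonds. Ndufb10 was at 99.9, 107 and 96.1 CPM in control KD and at 151, 113 and 114 CPM in Paupar KD. Ndufb7 was at 57.3, 53.7 and 49.9 CPM and at 85.2, 59.8 and 60.8 CPM. Ndufa8 was at 46.6, 44.5 and 39.3 CPM and at 58.7, 47.9 and 48.6 CPM. In each of the 3 the groups were apart, control 3 was lowest, and Paupar KD replicates 2 and 3 were within a few CPM of each other and well below replicate 1. Their log2 fold changes were 0.32, 0.35 and 0.25 (edgeR adjusted p = 0.255, 0.269 and 0.295).

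Ndufa11, which is needed for a stable membrane arm, was at 77.8, 78.7 and 79.2 CPM in the controls and at 117, 86.4 and 83.0 CPM in Paupar KD. Ndufc1 was at 25.8, 25.8 and 21.8 CPM and at 30.02, 27.2 and 25.9 CPM. The groups of both were apart, those of Ndufc1 by a narrow margin, and log2 fold changes were 0.28 and 0.18 (edgeR adjusted p = 0.312 and 0.414). Ndufb8 was at 234, 223 and 220 CPM and at 330, 223 and 210 CPM, and Ndufa3 at 42.0, 40.8 and 36.9 CPM and at 58.9, 41.2 and 35.2 CPM. In both, replicate 1 stood far above the controls, and replicate 3 below all of them. Ndufa4, of complex IV, was at 113, 125 and 105 CPM and at 169, 119 and 116 CPM, again with replicate 1 alone outside the range of the controls (log2 fold change 0.24 ± 0.15 SE, edgeR adjusted p = 0.440).

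**Figure D3:**
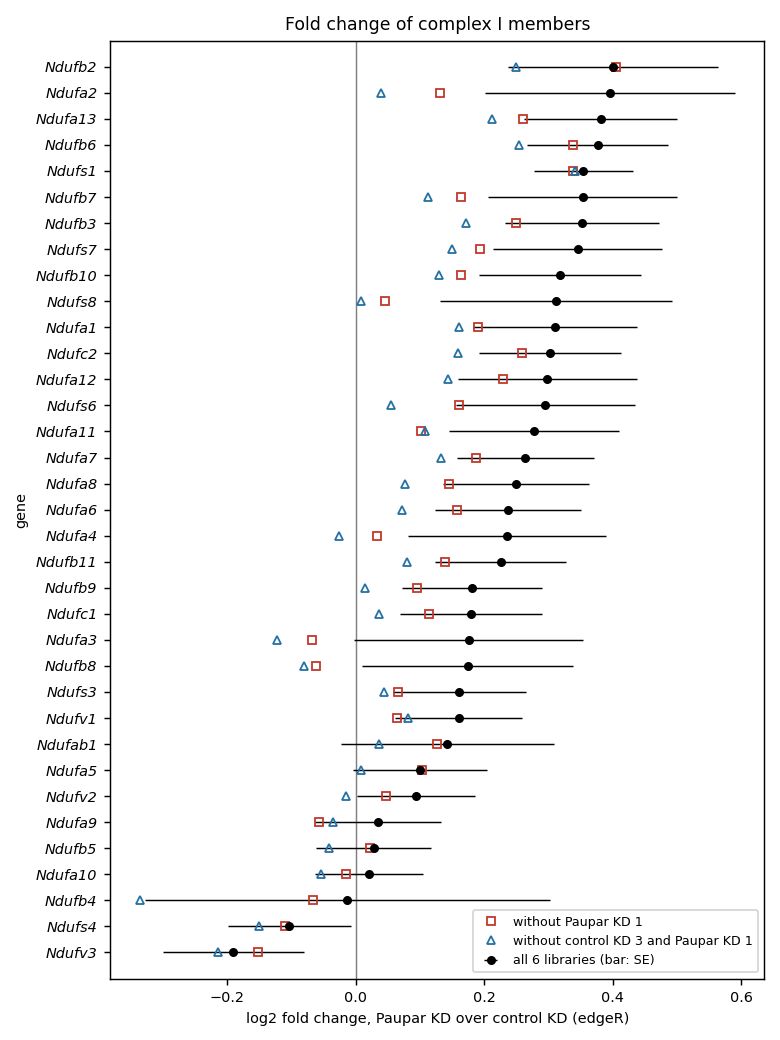
Log2 fold change of 35 members, Paupar KD over control KD, from edgeR with all 6 libraries (black points, bars of 1 SE), without Paupar KD replicate 1 (red squares) and without control KD replicate 3 and Paupar KD replicate 1 (blue triangles). The median over all 36 members is 0.24 with all libraries, 0.13 and 0.06 in the other fits, and Ndufs1 stays near 0.35 in each.

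The members deviated together by library. The median log2 deviation from the control mean was 0.08, 0.04 and -0.12 in controls 1 to 3. In the Paupar KD libraries it was 0.39, 0.13 and 0.12, in the same order of replicates, where the median over all tested genes was -0.00 to 0.01. Summed over the members, the level was 3023, 3009 and 2770 CPM in the controls and 3781, 3156 and 3163 CPM in Paupar KD. Paupar KD replicate 1 was the highest of the 6 libraries in 28 of 36 members, against 33.2% of all tested genes, and control KD replicate 3 the lowest of the 6 in 25 of 36, against 14.2%. Without Paupar KD replicate 1, 29 members were positive and 7 negative with a median of 0.13. With control KD replicate 3 also left out, 26 were positive and 10 negative with a median of 0.06.

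Within the complex, the core and accessory subunits were compared by library. In Paupar KD replicates 1 to 3 the median deviations were 0.33, 0.10 and 0.12 for the core subunits. They were 0.38, 0.11 and 0.12 for peripheral arm accessory subunits and 0.43, 0.14 and 0.16 for those of the membrane arm. Differences between the parts were not tested.

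Transcript length moved with these deviations. The members' transcripts are short, with a median of 891.5 bases, and 21 of 36 (58.3%) are below 1000 bases, against 7.28% of the tested genes with a known length. In Paupar KD replicate 1 the median deviation of the 14 members below 750 bases was 0.52, against 0.35 for 406 other genes of that length. For the 12 members of 1000 to 2000 bases it was 0.22 against 0.13, and other genes of 4000 bases or more were at -0.21. In control KD replicate 3 the order was the opposite, with -0.14 for members below 750 bases and -0.09 for other genes of that length. Across the 36 members, which share libraries and depth, the deviation in Paupar KD replicate 1 and log2 length had Pearson's r = -0.48 and Spearman's rho = -0.54. In control KD replicate 3 both coefficients were 0.42.

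The log2 fold change of members was above that of other genes in each length class with members. It was a median of 0.30 against 0.19 below 750 bases, 0.25 against 0.17 from 750 to 1000, 0.15 against 0.08 from 1000 to 2000 and 0.28 against 0.00 from 2000 to 4000, the last with 3 members. An edgeR fit with an offset for transcript length in each library, chosen after the data were seen, gave 28 positive and 8 negative members. The members' median was 0.10, against 0.02 over the 12386 genes in that fit. It called 0 members in either direction, where 43 of all its genes were called higher and 16 lower. At an unadjusted p under 0.05 there were 4 members, and the share over all genes was not computed. In that fit the medians by library were 0.04, 0.03 and -0.06 in the controls and 0.15, 0.02 and 0.10 in Paupar KD. Ndufs1, at 2661 bases the longest member together with Ndufa11, had a log2 fold change of 0.36 ± 0.07 (SE; edgeR adjusted p = 0.0774), while that of Ndufb6 was 0.21 and that of Ndufb3 0.20.

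**Figure D4:**
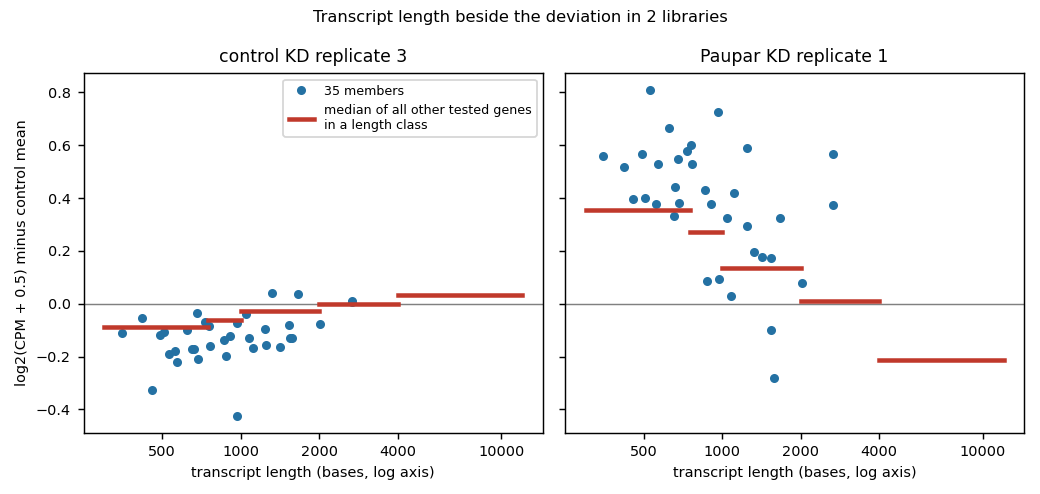
Log2(CPM + 0.5) minus the control mean in control KD replicate 3 (left) and Paupar KD replicate 1 (right) against transcript length in bases on a log axis, for 35 members (points) and as the median of all other tested genes in each length class (bars). In Paupar KD replicate 1 the bars run from 0.35 for the shortest genes to -0.21 for the longest, and most members lie above them.

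Genes that overlap limit some of these values. The counting's strand setting is not given in the sources used here. Without it, reads of Ndufb6 and 2010003O02Rik on the opposite strand, which share 39.0% of the exon bases of Ndufb6, cannot be told apart. The same holds for Ndufa13 and Tssk6 (30.2%), Ndufb5 and Mrpl47 (14.6%), Ndufb11 and Rbm10 (12.9%) and Ndufs1 and Gm11602 (9.32%). Ndufb2, an accessory subunit with a log2 fold change of 0.40 ± 0.16 (SE; edgeR adjusted p = 0.264), overlaps Adck2 and Gm16272. It shares 31.9% of its exon bases with a gene on its own strand and 18.5% with a gene on the opposite strand. It was at 24.5, 20.6 and 15.9 CPM in control KD and at 26.5, 24.4 and 29.4 CPM in Paupar KD, with groups that overlapped.

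Complex I also needs assembly factors, which build it and are not part of the finished enzyme. Of 16 listed, 10 were in the counts and tested, where 6 log2 fold changes were positive and 4 negative, the median was 0.03 and edgeR made 0 calls in either direction (3 higher and 0 lower at an unadjusted p under 0.05, against 9.63% and 8.11% of all tested genes; DESeq2 and limma-voom 0). Ndufaf3, which acts early on the quinone-binding part, was at 22.7, 18.7 and 20.7 CPM in control KD and at 41.3, 32.1 and 23.6 CPM in Paupar KD. Nubpl, which delivers iron-sulphur clusters, was at 7.66, 8.52 and 7.05 CPM and at 11.8, 11.1 and 9.05 CPM. The groups of both were apart, with replicate 3 nearest to the controls, and log2 fold changes were 0.64 and 0.46 (edgeR adjusted p = 0.184 and 0.208). In 2 others of the 10, all Paupar KD libraries lay below all controls. Over all tested genes, 13.7% lay above all controls in this way and 13.3% below. Of the 7 mitochondrially encoded subunits, mt-Nd1 to mt-Nd6 and mt-Nd4l, 0 were among the gene symbols, so the core of the membrane arm was not analysed here.

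Regulators of mitochondrial genes had values of both signs. Of 12, among them Ppargc1a, Esrra, Nrf1, Gabpa and Tfam, 5 log2 fold changes were positive and 7 negative and the median was -0.12. By edgeR, 0 were called and 0 had an unadjusted p under 0.05, and DESeq2 and limma-voom called 0. Yy1, whose word was in the start regions of 5 members, was at 125, 118 and 117 CPM in control KD and at 92.8, 110 and 112 CPM in Paupar KD. Its 3 Paupar KD values lay below its 3 controls (log2 fold change -0.19, edgeR adjusted p = 0.329). The 5 members with the word had log2 fold changes of 0.35 (Ndufs7), 0.30 (Ndufs6), 0.18 (Ndufc1), 0.04 (Ndufa9) and -0.10 (Ndufs4). Nrf1 had a log2 fold change of 0.02, and the 8 members with its word had values from -0.01 (Ndufb4) to 0.32 (Ndufb10). Pprc1, a coactivator related to PGC-1, was at 96.5, 96.5 and 114 CPM and at 83.4, 101 and 85.6 CPM, with overlapping groups (-0.19, edgeR adjusted p = 0.398).

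The nuclear subunits of the other respiratory complexes had positive medians as well, and edgeR called 0 genes in each list. At an unadjusted p under 0.05 it gave 1, 2, 1 and 1 higher genes for complexes II to V and 1 lower gene, Cox6b1, where the shares over all tested genes were 9.63% and 8.11%. Limma-voom called 0 genes and DESeq2 called 1, Uqcrq, higher. The medians were 0.17 for the 4 genes of complex II, 0.09 for 9 of complex III, 0.20 for 10 of complex IV and 0.16 for 15 of complex V, beside 0.24 for complex I. Positive values numbered 4, 8, 9 and 14 of these. By library, median deviations in Paupar KD replicates 1 to 3 were 0.40, 0.08 and 0.03 for complex II, 0.37, -0.00 and -0.02 for complex III, 0.43, 0.06 and 0.04 for complex IV and 0.33, 0.10 and 0.03 for complex V. Paupar KD replicate 1 had the highest median of the 3 in each list. In replicates 2 and 3 the median of complex I was 0.13 and 0.12, and its difference from the other complexes was not tested. Of single genes, Uqcrq had a log2 fold change of 0.50, Uqcr11 0.40, Cox7c 0.45, Atp5d 0.36, Sdhc 0.28, Sdhb 0.25 and Atp5g1 0.25, and Cox6b1 one of -0.55 (edgeR adjusted p from 0.150 to 0.335).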

How the data were processed

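The authors deposited 1 table of counts per library: whole reads for 23284 gene symbols, not normalized. Per the labels' protocols, libraries came from total RNA with the TruSeq kit of Illumina. The submitters' processing notes name HISAT2, HTSeq, DESeq2, CASAVA 1.8.2 and build mm9. Which step each tool served, the annotation, and how strand and reads with several matches were handled are not given here.

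Counts were fitted over all genes with edgeR 4.0.16 in R 4.3.3 (filterByExpr at a minimum count of 10, TMM factors, robust quasi-likelihood test, Benjamini-Hochberg adjustment, calls under 0.05), which left 13039 genes. CPM are TMM-scaled. The SE is the log2 fold change divided by the square root of F. Deviations are log2(CPM + 0.5) minus the mean of the 3 controls. Alternatives were other scaling factors and filters, DESeq2 1.42.0, limma-voom (limma 3.58.1), no robust estimation, a higher minimum level, a replicate block and leaving out libraries. Fits and sequence searches were tested on simulated data.

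Transcript models, lengths and overlaps are from GENCODE M1 on NCBIM37, the assembly of mm9, using for each gene the CCDS transcript with the longest coding part. Start regions are from RefSeq. For the length fit, a loess (span 0.5) of the log2 deviation on log2 length was taken as an offset in each library; 653 tested genes had no length.

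The members, gene lists and tests were chosen with earlier results of these data known. Values in every library are given for core subunits, for 12 other members with groups apart by smallest p, for the 3 most scattered in Paupar KD, and for Ndufa4 and the members highest and lowest per kilobase; of other lists, up to 2 genes with the smallest p were named. Ndufv3, Ndufs4, Ndufb2, BC002163, Slc30a8, Slc2a2, Ucn3, Esrra, Nrf1, Gabpa, Tfam and Ppargc1a were named in addition, after their values were seen. Values of 1 member are not reported here; it is counted in the totals and not drawn in the figures. No pair of libraries of a group agreed within sampling noise, and the Paupar KD libraries differed more among themselves than the controls did. The chi-square per gene was 3.46, 8.44 and 6.99 in control KD (replicates 1 and 2, 1 and 3, 2 and 3). In Paupar KD it was 43.6, 80.8 and 24.5 for the same pairs. The SD on the log2 scale was larger in Paupar KD for 84.6% of all tested genes and 58.3% of members. The part of this spread in the group comparisons was not tested.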

Additional observations from a re-analysis of the deposited data

How the results depend on the processing

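Over 17 alternatives, 27 of 36 members never changed sign, 9 did so in at least 1, and 3 (Ndufs1, Ndufb3 and Ndufb6) were called in at least 1. The number of members called higher, 0 with all 6 libraries, was 1 with DESeq2 and from 0 to 3 when libraries were left out: 1 lacking Paupar KD replicate 1, and 3 (Ndufs1, Ndufb3 and Ndufb6) lacking Paupar KD replicate 3. The number called lower was 0 in each. The median log2 fold change of 0.24 ran from 0.0633 (both control KD replicate 3 and Paupar KD replicate 1 left out) to 0.295 (Paupar KD replicate 3 left out), and was 0.13 when Paupar KD replicate 1 alone was left out and 0.0959 with the transcript-length offset. The offset and the joint omission were chosen after seeing the data. The cause of these shifts was not tested.

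When libraries were left out, log2 fold changes that changed sign ran from -0.0535 to 0.0617 for Ndufa10, from -0.122 to 0.326 for Ndufa3, from -0.0252 to 0.33 for Ndufa4, from -0.0565 to 0.0813 for Ndufa9 and from -0.336 to 0.211 for Ndufb4. They ran from -0.0415 to 0.0757 for Ndufb5, from -0.0802 to 0.294 for Ndufb8 and from -0.0158 to 0.128 for Ndufv2. Ndufb4, which has few counts, was 0.0149 with upper-quartile factors and 0.0554 with limma-voom. With the length offset, Ndufa3 was -0.0746, Ndufa5 -0.0250, Ndufa9 -0.0454, Ndufb5 -0.0725 and Ndufb8 -0.0056.

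With a replicate block, 0 members were called higher and 0 lower, the median was 0.23, the smallest edgeR adjusted p was 0.173, and Ndufb4 was 0.0209. Libraries of the same number had correlated deviations of 0.09, 0.02 and 0.02, so the numbers were not shown to pair the libraries. Controls 2 and 3 correlated best with a Paupar KD library of another number.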
